A study of Mus musculus with 19 samples.

Results

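Pericytes sit on the outer face of capillaries and are embedded in the same basement membrane as the endothelium. Expression of 10 pericyte genes (Pdgfb, Pdgfrb, Notch3, Rgs5, Kcnj8, Abcc9, Cspg4, Higd1b, Anpep and Vtn) was followed in mouse cerebral microvessels. They were chosen by gene symbol from the 39179 genes counted, and all 10 were found and passed the filter on low counts in every comparison. The study measured polyadenylated RNA by strand-specific, single-end sequencing of 80 nt reads from the vessels of male C57BL/6 mice, bought at 7 weeks of age. Its 19 libraries fall into 5 groups: room air under the title Room-air (n = 4), vapour of a nicotine-free electronic cigarette (Nic-free, n = 4), vapour of an electronic cigarette with nicotine (Nic, n = 3), a further room air set under the title air (n = 4) and smoke (n = 4). No sample is labelled with a genetic change. The labels do not state the dose, the length of exposure or the age at collection, or whether vessels of several mice were pooled. They do not link either air set to an exposure, so Room-air was set against the electronic cigarette groups and air against smoke by their titles. Nothing in the labels says that replicates came from separate animals, and p-values then measure only the spread between these samples, which may be technical.

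Endothelial cells release PDGF-BB, the product of Pdgfb, and the receptor encoded by Pdgfrb on pericytes binds it, which recruits pericytes to growing vessels and keeps them there. In the brain, pericytes are needed for a tight blood-brain barrier. Notch3 is a receptor of mural cells, the pericytes and smooth muscle cells of the vessel wall, and is activated by ligands on neighbouring endothelium. Kcnj8 and Abcc9 encode the pore and the regulatory subunit of the vascular ATP-sensitive potassium channel, which opens when cellular ATP is low and hyperpolarises the cell. Rgs5 encodes a regulator that shortens G protein signalling, Cspg4 the NG2 proteoglycan, Anpep aminopeptidase N (CD13) of the cell surface, and Vtn the secreted matrix protein vitronectin. Higd1b encodes a small protein of the hypoxia-inducible gene domain family that marks brain pericytes. Several are not exclusive to pericytes: Pdgfb is made by endothelium, Cspg4 also by oligodendrocyte precursors, Notch3 and Rgs5 also by smooth muscle, and Anpep also by fibroblasts and some blood cells.

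Total counts per library ran from 7939180 to 30185056. They were 25266790 to 30185056 in Room-air, 15200536 to 19137859 in Nic-free and 21800157 to 28364198 in Nic, and 9761373 to 13490373 in air and 7939180 to 12607538 in smoke. Reads assigned to no feature made up 28.7 to 33.4% of reads in Room-air, 38.9 to 45.2% in Nic-free, 33.0 to 38.4% in Nic, 33.6 to 37.5% in air and 28.9 to 33.3% in smoke. These ranges do not overlap between Nic-free and Room-air, Nic and Nic-free, smoke and air, or air and Room-air, the comparisons in which most of the calls below were made, and the part of this share in the results was not tested. Levels below are counts scaled to 1000000 gene counts of a library (CPM). The fewest reads behind a member's value were 64, for Anpep in an air library. The preparation held endothelial transcripts (20 markers, 1730 to 6600 CPM summed) and transcripts of other brain cells (16 neuron markers, 6900 to 11900 CPM summed). Choroid plexus and ependymal markers varied most, at 17800 to 25000 CPM summed in Room-air, 886 to 18600 in Nic-free, 2130 to 7230 in Nic, 3730 to 24800 in air and 1790 to 27100 in smoke. Since CPM are shares of a library, such transcripts enter the total behind every level, and their part in the results below was not tested. No marker of any list was at 0 in all 19 libraries. In bulk RNA, fewer pericytes and less RNA per pericyte cannot be told apart.

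All 10 genes were detected in every library, and the most abundant pericyte transcripts encoded vitronectin and the G protein regulator. Per kilobase of exonic sequence, the mean of the 5 groups was 209 CPM for Vtn and 125 CPM for Rgs5. Next were Pdgfb (21.7 CPM per kilobase), Higd1b (20.3) and Pdgfrb (17.9), then Kcnj8 (6.51), Notch3 (6.43), Abcc9 (4.17), Cspg4 (3.77) and Anpep (3.62). The pore subunit Kcnj8 thus stood above its partner Abcc9 on this per-length scale. Abcc9 had the widest span between group means, 2.96-fold from the highest to the lowest, and Cspg4 the narrowest, 1.41-fold. By mean CPM the order of groups began with Nic and ended with air for every one of the 10 genes. The ranges of groups next to each other in that order overlapped, except for Abcc9, where Nic lay above Room-air and Room-air above Nic-free with no overlap.

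**Figure D1:**
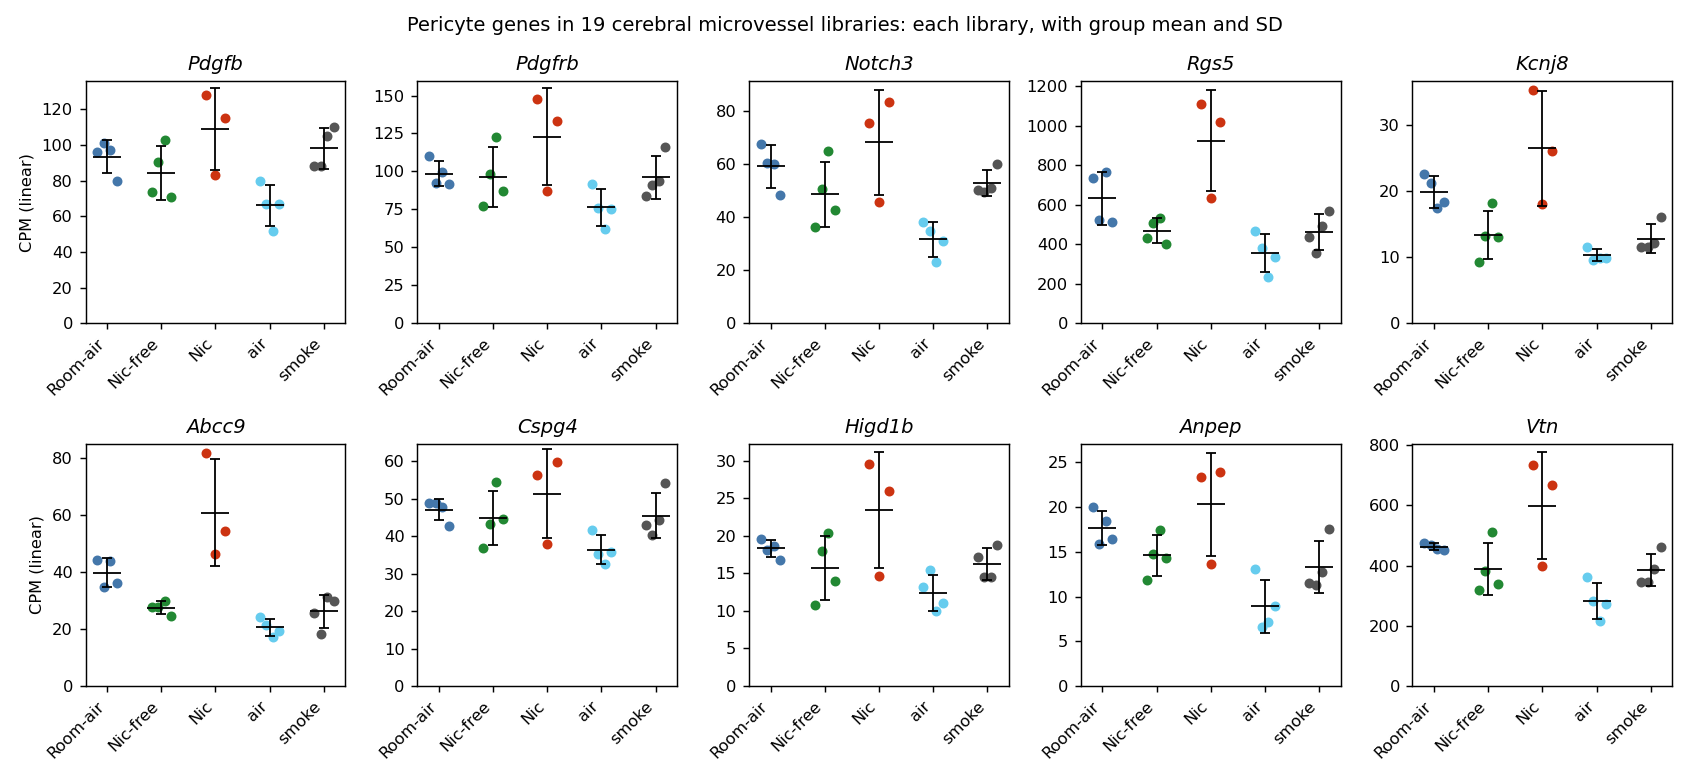
Level of each pericyte gene in CPM (linear axis from 0) in the 19 libraries, by group. Points are libraries, and bars are the group mean ± SD (n = 4, n = 3 for Nic). In Nic, 1 library sits low beside the other 2 for most genes, while the lowest Abcc9 value there, 46.3 CPM, is above all 4 Room-air values.

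The ligand Pdgfb and the receptor Notch3 were higher after smoke than in air, and lower in air than in Room-air. Both differences rest on the same air libraries, so they are not independent. Pdgfb (ENSMUSG00000000489, chromosome 15, 79995874 to 80014977, GRCm38) measured 79.7, 66.9, 51.7 and 66.8 CPM in air 1 to 4 and 88.2, 88.5, 105 and 110 CPM in smoke 1 to 4. Every smoke library lay above every air library. It was 98.1 ± 11.4 CPM in smoke against 66.3 ± 11.5 in air (SD, n = 4 each). On the log2 scale smoke was higher by 0.59 with an SE of 0.12 (adjusted p 0.0414, edgeR). In Room-air 1 to 4 it was 96.0, 101, 97.2 and 80.0 CPM, so smoke overlapped the other room air set, with smoke 3 and 4 above all of its libraries.

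Notch3 (ENSMUSG00000038146, chromosome 17, 32120820 to 32166852) had the largest difference of the 10 genes between smoke and air. It measured 38.1, 34.6, 23.0 and 30.8 CPM in air and 50.3, 49.6, 50.8 and 60.0 CPM in smoke, again with no overlap. On the log2 scale the difference was 0.76 with an SE of 0.13 (adjusted p 0.0336, edgeR), and genes with no overlap upwards were 5.48% of all genes tested. Room-air stood at 67.6, 60.4, 60.1 and 48.2 CPM, Nic-free at 36.4, 50.4, 65.0 and 42.8 CPM and Nic at 75.4, 45.5 and 83.3 CPM. Nic-free and Nic both overlapped Room-air, with log2 differences of −0.23 (adjusted p 0.442) and 0.18 (0.643). An antisense gene, Gm17276, overlaps 488 exonic bases of Notch3 on the other strand, and Notch3 counts carry that uncertainty because it is not known whether counting used strand. Gm17276 itself had 8 to 42 counts per library.

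The receptor Pdgfrb (ENSMUSG00000024620, chromosome 18, 61045150 to 61085061) did not pass in any comparison. It measured 110, 92.5, 99.5 and 92.0 CPM in Room-air, 77.3, 98.0, 123 and 87.3 CPM in Nic-free and 148, 87.0 and 133 CPM in Nic. The air libraries gave 91.9, 75.8, 62.1 and 75.3 CPM and the smoke libraries 83.5, 90.8, 93.8 and 116 CPM. Against air, smoke differed by 0.36 ± 0.12 on the log2 scale (SE; edgeR adjusted p 0.148), and Nic-free differed from Room-air by 0.02 ± 0.16 (0.942).

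Of the 10 genes, 2 thus rose in smoke against air and none fell (3 by DESeq2, with Vtn), where 1.6% of all 15232 genes tested passed and 1.08% were higher. All 10 had a log2 fold change above 0, with a median of 0.41 against 0.02 over all genes tested. All 10 had an unadjusted p under 0.05, as did 19.3% of all genes. Of the 20 endothelial markers 4 rose, with summed levels of 1730 to 3090 CPM in air and 3100 to 4120 CPM in smoke, which do not overlap. Of the 12 smooth muscle markers 1 rose (302 to 640 CPM summed in air, 544 to 789 CPM in smoke), and of the 16 neuron markers 2 fell (9220 to 11900 CPM in air, 6900 to 11100 CPM in smoke). The part of these other cells in the pericyte gene values was not tested. Both calls were lost in most of the fits that leave out 1 library. Log2 differences over those fits ran from 0.49 to 0.67 for Pdgfb and from 0.64 to 0.84 for Notch3. Pdgfb kept its call in 1 of the 8 fits that leave out 1 library, that without air replicate 1. Without air 2, 3 or 4 its adjusted p was 0.102, 0.115 and 0.0738, and without smoke 1, 2, 3 or 4 it was 0.084, 0.0607, 0.063 and 0.116. Notch3 kept its call without air 1 and without smoke 3, and its adjusted p was 0.0886, 0.077 and 0.0628 without air 2, 3 or 4 and 0.0785, 0.0528 and 0.0946 without smoke 1, 2 or 4. With the replicate number as a block the adjusted p was 0.117 for Pdgfb and 0.0904 for Notch3. Set against Room-air in place of air, smoke gave log2 differences of 0.12 (adjusted p 0.657) for Pdgfb and −0.12 (0.755) for Notch3.

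Both potassium channel genes were higher in Nic than in Nic-free. Abcc9 (ENSMUSG00000030249, chromosome 6, 142587862 to 142702315) measured 44.3, 34.6, 43.8 and 36.2 CPM in Room-air 1 to 4. It was 27.6, 27.7, 29.8 and 24.4 CPM in Nic-free and 81.7, 46.3 and 54.4 CPM in Nic, so that the 3 groups did not overlap. Nic stood at 60.8 ± 18.6 CPM (SD, n = 3) against 27.4 ± 2.22 in Nic-free (n = 4). The difference was 1.07 on the log2 scale with an SE of 0.16 (adjusted p 0.000545, edgeR). This difference passed in all 12 alternatives run, at log2 0.83 to 1.23. A 158-base exonic overlap with an antisense gene on the other strand, 5330439B14Rik, makes a small part of the Abcc9 counts uncertain.

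Kcnj8 (ENSMUSG00000030247, chromosome 6, 142564837 to 142571614) lies beside Abcc9 on the same strand. It measured 22.6, 21.2, 17.5 and 18.4 CPM in Room-air, 9.27, 13.2, 18.2 and 13 CPM in Nic-free and 35.4, 18 and 26.1 CPM in Nic. Only the highest Nic-free library overlapped the lowest Nic library. Nic was higher than Nic-free by 0.90 ± 0.22 on the log2 scale (SE; edgeR adjusted p 0.0102), and the adjusted p was 0.058 without Nic replicate 1.

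The stretches upstream of the genes called between Nic and Nic-free, and of Notch3, which was called between smoke and air, are shown as a description. Each line holds 200 bases, from 250 to 51 bases before the RefSeq transcription start (GRCm38.p6), read 5′ to 3′ on the gene's strand. Capitals mark matches, on either strand, to TGGGAA (the core bound by RBPJ, the DNA-binding partner of Notch), GGGCGG (the GC box) or TATAAA (the TATA box).
Abcc9, chr6:142702325-142702524, minus strand: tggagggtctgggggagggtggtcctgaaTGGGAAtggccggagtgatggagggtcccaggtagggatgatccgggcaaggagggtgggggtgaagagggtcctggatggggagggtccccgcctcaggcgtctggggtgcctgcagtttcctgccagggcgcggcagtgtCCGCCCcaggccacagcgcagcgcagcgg
Kcnj8, chr6:142571665-142571864, minus strand: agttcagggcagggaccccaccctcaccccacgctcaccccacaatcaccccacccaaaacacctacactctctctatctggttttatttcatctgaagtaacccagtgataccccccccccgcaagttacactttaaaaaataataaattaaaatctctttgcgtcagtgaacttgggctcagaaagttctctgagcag
Rgs5, chr1:169655251-169655450, plus strand: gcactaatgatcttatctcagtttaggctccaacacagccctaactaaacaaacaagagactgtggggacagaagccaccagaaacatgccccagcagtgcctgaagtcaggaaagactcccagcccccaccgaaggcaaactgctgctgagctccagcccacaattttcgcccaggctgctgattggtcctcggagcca
Vtn, chr11:78498870-78499069, plus strand: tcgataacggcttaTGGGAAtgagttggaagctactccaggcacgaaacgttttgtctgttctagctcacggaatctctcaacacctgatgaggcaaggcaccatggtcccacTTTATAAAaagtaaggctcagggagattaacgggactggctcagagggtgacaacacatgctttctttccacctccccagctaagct
Notch3, chr17:32166941-32167140, minus strand: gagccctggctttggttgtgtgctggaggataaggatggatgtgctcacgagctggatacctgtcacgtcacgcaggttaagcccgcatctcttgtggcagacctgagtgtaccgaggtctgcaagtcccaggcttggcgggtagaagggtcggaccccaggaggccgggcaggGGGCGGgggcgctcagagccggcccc

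TGGGAA occurred once in the stretches of Abcc9 and Vtn and not in those of Kcnj8, Rgs5 and Notch3. Of all 32851 RefSeq stretches of this length, 17.9% held it. The GC box stood once in Abcc9 and once in Notch3 (24.6% of all stretches hold it), and the 2 TATA matches of Vtn, 1 on each strand, overlap each other (9.14% of all stretches hold it). The neighbouring channel genes differed in base composition, with 69.5% G and C upstream of Abcc9 and 47.5% upstream of Kcnj8, against a median of 51.5% over all stretches. A match describes the letters only, and the bases nearest the transcription start lie outside these stretches and were not searched. Of the 10 genes, 7 had an entry in the promoter table.

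Rgs5 and Vtn, the most abundant members, were also higher in Nic than in Nic-free. Rgs5 (ENSMUSG00000026678, chromosome 1, 169655501 to 169695813) measured 733, 522, 764 and 513 CPM in Room-air, 430, 508, 533 and 399 CPM in Nic-free and 1110, 634 and 1020 CPM in Nic. All Nic libraries lay above all Nic-free libraries. Libraries lay apart upwards in this way for 20.7% of all genes tested. The difference was 0.91 on the log2 scale with an SE of 0.19 (adjusted p 0.00425, edgeR), and it passed in all 12 alternatives run.

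Vtn (ENSMUSG00000017344, chromosome 11, 78499091 to 78502324) measured 476, 467, 454 and 452 CPM in Room-air, a coefficient of variation of 2.48%. Nic-free gave 318, 382, 512 and 340 CPM and Nic 734, 397 and 667 CPM, which overlap. Its difference of 0.55 on the log2 scale (SE 0.19; adjusted p 0.0429, edgeR) did not hold without any one of Nic-free 1, 2 or 4 or of Nic 1 or 3 (adjusted p 0.098, 0.0887, 0.103, 0.195 and 0.136), with no filter on low counts (0.0581) or with the replicate number as a block (0.0724).

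Of the 10 genes, 4 rose in Nic against Nic-free (Abcc9, Kcnj8, Rgs5 and Vtn) and none fell, by edgeR and by DESeq2, where 24.8% of all 17235 genes tested passed and 12.4% were higher. At an unadjusted p under 0.05 there were 6 of 10, against 38.1% of all genes. The median log2 fold change of the 10 was 0.45 against 0.02 over all genes tested, and all 10 lay above 0. Cspg4 (0.13 ± 0.14, adjusted p 0.556) and Pdgfrb (0.28 ± 0.17, 0.251) were the nearest to 0. The count rests on which Nic libraries are used. Without Nic replicate 2, 9 genes passed, all but Cspg4, and without Nic replicate 1, 2 passed. Endothelial markers rose in 12 of 20, with summed levels of 2560 to 3890 CPM in Nic-free and of 6500, 3710 and 6600 CPM in Nic 1 to 3. Neuron markers fell in 8 of 16 (10400 to 11900 CPM in Nic-free, 8070 to 8430 CPM in Nic), and astrocyte markers fell in 8 of 13. The part of these other cells in the pericyte gene values was not tested.

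Against Room-air, 1 of the 10 genes passed in each electronic cigarette group, and it was Abcc9 both times. These comparisons share the Room-air libraries with each other and with the comparison of the air sets. They share the Nic-free and Nic libraries with Nic against Nic-free. A fall in Nic-free against Room-air and a rise in Nic against Nic-free are therefore not independent, here and for the further lists below. Abcc9 fell in Nic-free by 0.48 on the log2 scale (± 0.15, SE; edgeR adjusted p 0.0309), where 21.8% of all genes tested passed and 10.4% were lower. It rose in Nic by 0.59 ± 0.15 (adjusted p 0.0482), where 3.89% passed and 1.22% were higher. Kcnj8 (−0.51, adjusted p 0.0916) and Rgs5 (−0.39, 0.137) in Nic-free, and Rgs5 in Nic (0.52, 0.116), did not pass. DESeq2 gave 2 calls in Nic-free, with Kcnj8 at an adjusted p of 0.0464, and 1 in Nic. Members with an unadjusted p under 0.05 were 3 in Nic-free and 2 in Nic, against 35.6% and 24.4% of all genes. Libraries lay apart for Abcc9 alone among the 10, lower in Nic-free and higher in Nic, as they did in that direction for 15.6% and 8.19% of all genes. The median over the 10 genes was −0.21 in Nic-free and 0.31 in Nic, against 0.00 and 0.03 over all genes tested.

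Both Abcc9 calls against Room-air were lost in most of the fits that leave out 1 library. Log2 differences over those fits ran from −0.55 to −0.43 in Nic-free and from 0.33 to 0.75 in Nic. In Nic-free the adjusted p was 0.0762 and 0.0805 without Room-air 1 or 3 and 0.0522, 0.0683 and 0.091 without Nic-free 1, 2 or 4. In Nic it was 0.0828, 0.125, 0.066 and 0.0875 without Room-air 1 to 4 in turn and 0.292 without Nic 1. With the replicate number as a block it was 0.0536, and with all 19 libraries in the fit 0.0625. With the air set as control, Nic-free gave a log2 difference of 0.42 for Abcc9 in place of a fall, and 9 of the 10 genes changed sign. With that control all 10 genes were higher in Nic and passed, Abcc9 at a log2 fold change of 1.48 and Cspg4 at 0.42. Endothelial markers fell in 7 of 20 in Nic-free against Room-air and in none of 20 in Nic (3620 to 4940 CPM summed in Room-air). Neuron markers rose in 10 of 16 in Nic-free (7650 to 8580 CPM in Room-air), and their part was not tested.

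**Figure D2:**
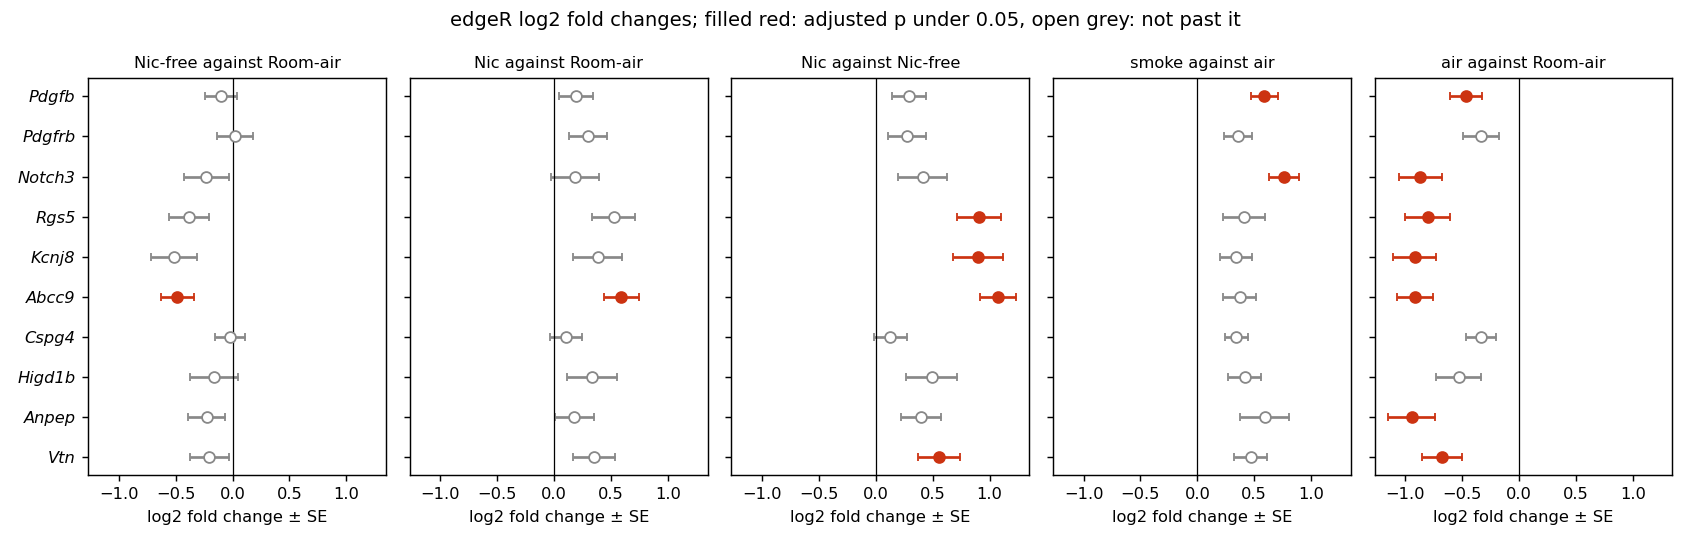
edgeR log2 fold change ± SE of each pericyte gene (rows) in the 5 comparisons (panels). Filled red points have an adjusted p under 0.05 over all genes tested. In air against Room-air 7 of 10 points are red and all lie below 0, while Nic against Nic-free has 4 and smoke against air has 2, all above 0.

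The 2 room air sets carry the same exposure label, and yet most of these genes differed between them. In air against Room-air 7 of the 10 genes fell (8 by DESeq2, with Higd1b) and none rose, where 22.7% of all 16557 genes tested passed and 12% were lower. Every one of the 10 genes lay lower in all 4 air libraries than in all 4 Room-air libraries, as did 16.5% of all genes tested. All 10 had an unadjusted p under 0.05, as did 37.1% of all genes. The median log2 fold change was −0.74, against 0.00 over all genes. Anpep (ENSMUSG00000039062, chromosome 7, 79821803 to 79861059) fell by 0.94 on the log2 scale, from 17.7 ± 1.89 CPM to 8.93 ± 2.96 (SD, n = 4 each; edgeR adjusted p 0.00357). Kcnj8 fell by 0.92 (adjusted p 0.00256), Abcc9 by 0.91 (0.000677), Notch3 by 0.87 (0.00412), Rgs5 by 0.80 (0.00802) and Vtn by 0.67 (0.0101). Pdgfb fell by 0.46 (0.024), a call lost without Room-air 2 or 3 or without air 2 or 3 (adjusted p 0.0604, 0.0548, 0.0537 and 0.0922). Pdgfrb (−0.33, adjusted p 0.131) and Cspg4 (−0.33, 0.0716) did not pass. Endothelial markers fell in 14 of 20 and neuron markers rose in 5 of 16. Oligodendrocyte markers rose in 6 of 11, with summed levels of 13200 to 15800 CPM in Room-air and 23300 to 32500 CPM in air. Fibroblast markers, of cells that also make Anpep, fell in 5 of 12, with 820 to 1280 CPM in Room-air and 450 to 780 CPM in air. Depth and the share of reads in no feature differ between the sets too. These cannot be told apart from whatever else separates the sets.

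Of the remaining members, Cspg4 (ENSMUSG00000032911, chromosome 9, 56865033 to 56899870) ranged from 32.5 to 59.9 CPM over the 19 libraries with a median of 43.2, and it passed in no comparison. Markers of oligodendrocyte precursors, which also make NG2, summed to 732 to 1190 CPM, with the highest value in smoke 2, where Cspg4 was 40.3 CPM. Higd1b (ENSMUSG00000020928, chromosome 11, 102835849 to 102838040) ranged from 9.93 to 29.5 CPM with a median of 16.8 and passed in none of the comparisons by edgeR. Anpep ranged from 6.56 to 23.9 CPM with a median of 14.3, and passed between the air sets only, in 1 of the 5 pairwise comparisons made.

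The difference between the smoke effect and the Nic effect, each within its own air set, was tested in 1 fit of all 19 libraries. None of the 10 genes passed by edgeR or by DESeq2, where 5.59% of all genes tested did by edgeR. At an unadjusted p under 0.05 there was 1, Notch3 (log2 difference 0.59 ± 0.28, SE; unadjusted p 0.0486, adjusted p 0.195), as there were 25.3% of all genes. A call in 1 exposure and not in the other, as for Notch3 and Abcc9, is therefore not shown to differ between them.

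Within groups, the 10 genes went up and down together from library to library. Taking log2 CPM as deviations from group means over the 19 libraries, all 45 gene pairs had a Pearson r above 0, from 0.57 to 0.97 with a median of 0.83. The points share depth and cell composition within a library, so these values are descriptive. Pdgfrb and Vtn made the closest pair (0.97), and Notch3 had the highest median r with the other members (0.90). Abcc9 had the lowest (0.62), and its r with its channel partner Kcnj8 was 0.57. Over the 16 libraries without Nic the median was 0.77, with a range from 0.34 to 0.95. Nic shows the pattern in single libraries: the 10 genes summed to 2430 CPM in Nic 1, 1380 in Nic 2 and 2210 in Nic 3, while endothelial markers summed to 6500, 3710 and 6600 CPM.

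**Figure D3:**
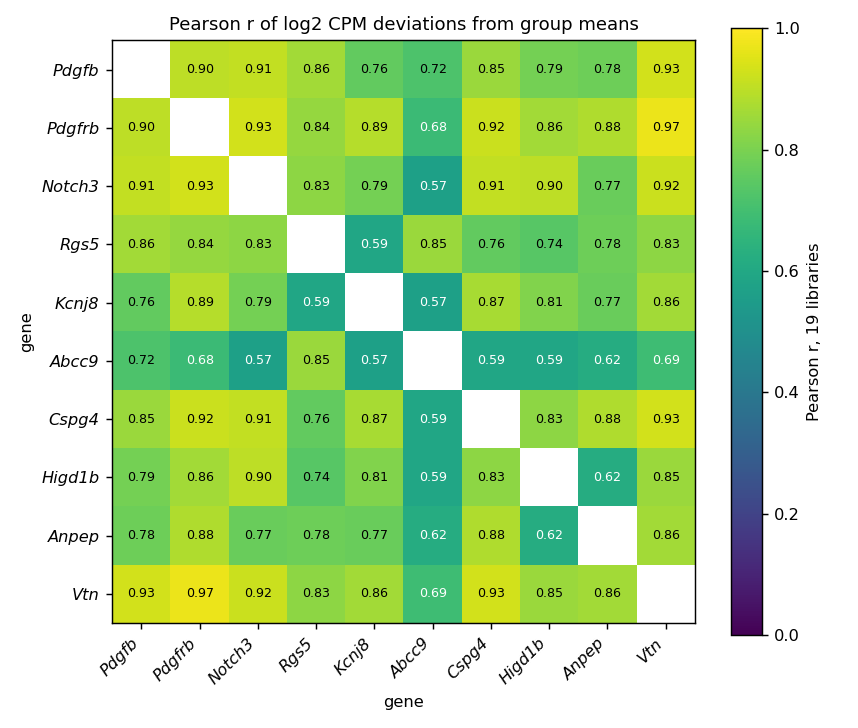
Pearson r between pericyte genes over 19 libraries, from log2 CPM as deviations from the group mean (colour scale from 0 to 1). All pairs lie above 0, and the row of Abcc9 has the lowest median r, 0.62.

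Outside the list, the genes most like the mean of the 10 by the same measure were Cxcl12, a chemokine gene (r 0.98), Cavin1, of caveolae (0.96), Afap1l1 (0.95), Thsd1 (0.95) and S1pr3, a receptor of sphingosine 1-phosphate (0.95). They were ranked among 13999 named genes of at least 1 CPM over 19 libraries, and no test applies to such a ranking.

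The summed pericyte genes kept a narrow ratio to the summed endothelial markers. Rgs5 and Vtn made up most of the pericyte sum. In Room-air their means were 633 and 462 CPM, where the 10 genes summed to a mean of 1490 CPM. The ratio therefore says little about the less abundant members. The ratio was 33.9 ± 1.81% in Room-air, 38.6 ± 1.79% in Nic-free, 36.0 ± 2.14% in Nic, 37.5 ± 1.86% in air and 33.7 ± 1.1% in smoke (SD, n = 4, n = 3 for Nic). Over the same libraries the summed pericyte genes themselves ran from 666 CPM in air 3 to 2430 CPM in Nic 1. The ratio in smoke was at most 35.3%, and that in air at least 35.1%, so these ranges met at their edge. The ratios in Nic-free, 36.9 to 41.1%, lay above those in Room-air, 32.4 to 36.4%, with no overlap, although the pericyte sum itself was 1320 to 1640 CPM in Room-air and 1030 to 1480 CPM in Nic-free.

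**Figure D4:**
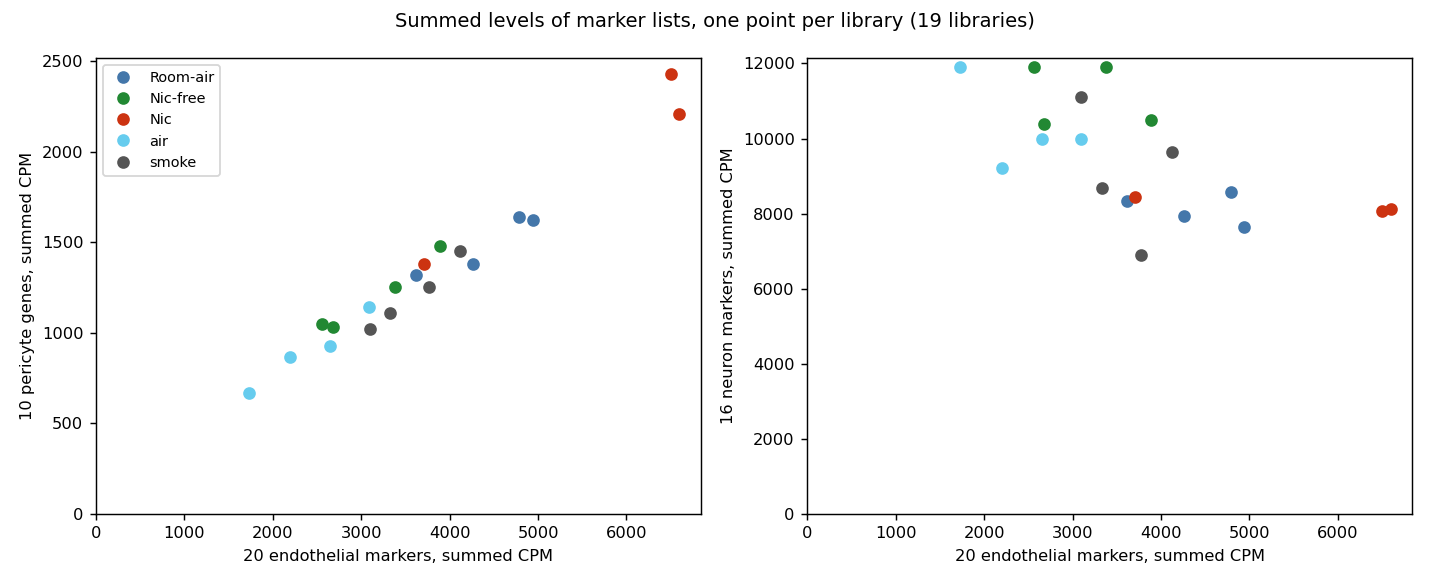
Summed CPM of the 10 pericyte genes (left) and of 16 neuron markers (right) against the summed CPM of 20 endothelial markers, 1 point per library, linear axes from 0. Pericyte and endothelial sums lie along 1 line from 666 and 1730 CPM (air 3) to 2430 and 6500 CPM (Nic 1), and neuron sums do not follow that line.

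Relative to Pdgfrb in the same library, 4 members were higher in Room-air and Nic than in Nic-free, air and smoke. This ratio was chosen after the values were seen, is descriptive and rests on Pdgfrb as its base. Abcc9 stood at 40.3 ± 2.79% of Pdgfrb CPM in Room-air and 49.7 ± 7.7% in Nic, against 29.0 ± 4.77% in Nic-free, 27.0 ± 1.12% in air and 27.4 ± 5.73% in smoke (SD). Kcnj8 stood at 17.6 to 22.9% of Pdgfrb in Room-air and 19.6 to 23.9% in Nic, and at 12.0 to 14.9% in Nic-free, 12.7 to 15.9% in air and 12.6 to 13.9% in smoke. In Nic 2, whose pericyte sum was the lowest of the 3 Nic libraries, Abcc9 was 53.2% and Kcnj8 20.7% of Pdgfrb. No library of Room-air or Nic overlapped one of Nic-free, air or smoke in either channel gene. The share of all genes that split in this way is not given here. Shares for some pairs of groups follow below.

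Rgs5 and Vtn split in the same way, for Rgs5 by a hair, with the lowest Room-air ratio at 5.57 and the highest Nic-free ratio at 5.56. Rgs5 was 5.57 to 7.68 times Pdgfrb in Room-air and 7.28 to 7.68 times in Nic, and 4.34 to 5.56, 3.79 to 5.05 and 3.89 to 5.24 times in Nic-free, air and smoke. Vtn was 4.34 to 5.05 times Pdgfrb in Room-air and 4.56 to 5.01 times in Nic, and 3.89 to 4.16, 3.49 to 3.94 and 3.82 to 4.16 times in the other groups. Cspg4 was 48.0 ± 3.56% of Pdgfrb in Room-air, 42.2 ± 3.71% in Nic and 46.8 ± 3.24% in Nic-free (SD), with overlapping ranges. Higd1b had means of 18.6% of Pdgfrb in Room-air and 18.7% in Nic. Its means were 16.2% in Nic-free, 16.3% in air and 17.0% in smoke. These means split like those of the 4 genes, but the libraries overlapped.

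**Figure D5:**
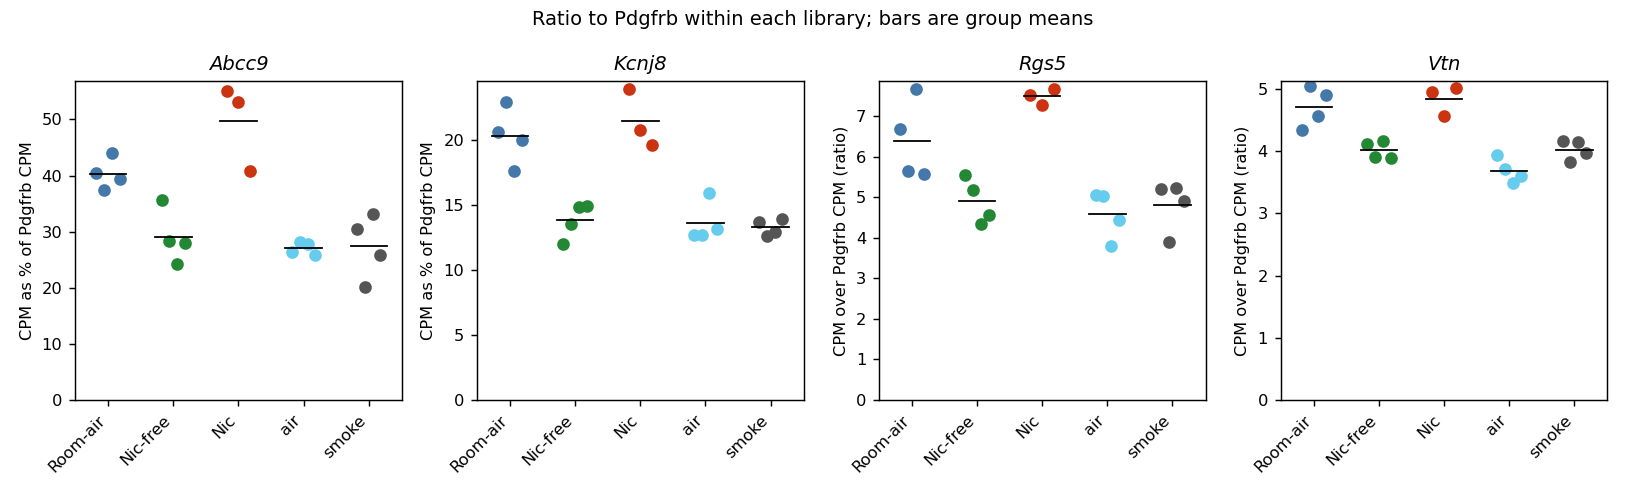
CPM of Abcc9 and Kcnj8 (as percent) and of Rgs5 and Vtn (as a ratio) relative to Pdgfrb in the same library, by group, linear axes from 0. Points are libraries and bars are group means. Room-air and Nic lie above Nic-free, air and smoke in all 4 panels, for Kcnj8 at 17.6 to 23.9% against 12.0 to 15.9%.

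In Nic against Nic-free 4 of 9 ratios to Pdgfrb did not overlap and were higher (Rgs5, Kcnj8, Abcc9 and Vtn), as were 2.44% of all genes tested taken as a ratio to Pdgfrb. In Nic-free against Room-air 5 of 9 did not overlap and were lower, these 4 and Anpep, as were 5.68% of all genes. In air against Room-air 6 of 9 were lower, with Notch3 added, as were 3.47%. In smoke against air the 4 genes overlapped, and the ratios that did not overlap were those of Pdgfb and Notch3, both higher, as were 0.571% of all genes. In Nic against Room-air none of the 9 stood apart, where 12.6% of all genes did in either direction. Within groups the 4 genes varied with Pdgfrb (Pearson r 0.97 for Vtn, 0.89 for Kcnj8, 0.84 for Rgs5 and 0.68 for Abcc9). Division by Pdgfrb can therefore narrow their spread more than that of other genes. In CPM, 20.7% of all genes lay apart upwards in Nic against Nic-free and 5.48% in smoke against air. The shares of ratios are thus not a like base for the members, and no conclusion is drawn from them. Depth moves with the split of Room-air and Nic from Nic-free, air and smoke. Every Room-air and Nic library had at least 21800157 counts, and every Nic-free, air and smoke library had at most 19137859. The part of depth in the ratios was not tested.

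Of 18 further pericyte markers 8 rose in Nic against Nic-free and none fell, where 12.4% of all genes tested were higher, among them Ecm2, an extracellular matrix protein (log2 1.04), P2ry14, a receptor of UDP-sugars (1.00), and Enpep, aminopeptidase A (1.13). In Nic-free against Room-air, where 10.4% of all genes were lower, 6 fell and none rose, with Ecm2 at −0.83, Slc6a20a, an amino acid transporter, at −0.56, Enpep at −0.72 and P2ry14 at −0.51 leading. Between the air sets, where 12% of all genes were lower, 11 fell and none rose, among them Ecm2 (−1.03), P2ry14 (−0.94) and Art3, an ADP-ribosyltransferase (−0.78). By edgeR none passed in Nic against Room-air or in smoke against air. Median log2 fold changes of the list were 0.47 in Nic against Nic-free, −0.19 in Nic-free and 0.27 in Nic against Room-air, 0.39 in smoke against air and −0.67 between the air sets.

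Among 20 further genes of PDGF and Notch signalling, genes were called in both directions in Nic-free against Room-air and in Nic against Nic-free. Receptors called within a comparison all went the same way. Pdgfd, a PDGF ligand that binds the receptor encoded by Pdgfrb, fell in Nic-free against Room-air (log2 −0.97 ± 0.16, SE; edgeR adjusted p 0.00164) and was higher in Nic than in Nic-free (1.00 ± 0.17, 0.00138). Notch2 fell in Nic-free (−0.90 ± 0.14, 0.00111) and in Nic (−0.65 ± 0.15, 0.0357) against Room-air. Notch4, the endothelial Notch receptor, fell in Nic-free (−0.92) and was higher in Nic than in Nic-free (0.98). Nrarp, a Notch target that feeds back on the pathway, rose in Nic-free (0.65) and was lower in Nic than in Nic-free (−0.59), opposite to Pdgfd and Notch4. In all, 2 rose and 6 fell in Nic-free against Room-air, 1 fell in Nic against Room-air, and 7 rose and 2 fell in Nic against Nic-free, where Maml1, a coactivator of Notch, also rose (0.50). Of all genes tested, 21.8%, 3.89% and 24.8% were called in these comparisons, and the count of 1 in Nic against Room-air is near that share. In smoke against air, where 1.08% of all genes were higher, 1 rose, Notch1 (0.65 ± 0.11, adjusted p 0.0297). Between the air sets, where 12% of all genes were lower, 7 fell, led by Pdgfra (−0.56), the receptor of fibroblasts and oligodendrocyte precursors, Notch4 (−1.39), Maml1 (−0.58) and Notch1 (−0.79).

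Of 18 further genes through which endothelium and mural cells signal to each other, 1 rose and 3 fell in Nic-free against Room-air, a share near the 21.8% called among all genes. They were S1pr1, a sphingosine 1-phosphate receptor (−0.47), Hbegf, a growth factor of the EGF family (0.59), Tgfbr2, a TGF-beta receptor (−0.78), and Pecam1, an adhesion molecule of endothelium (−0.82). In Nic against Nic-free, where 12.4% of all genes were higher, 6 rose and none fell, led by Tgfbr2 (0.90), S1pr1 (0.50), Pecam1 (1.14) and Ednra, an endothelin receptor of mural cells (0.63). Between the air sets, with 12% of all genes lower, 11 fell and none rose, led by Tgfbr2 (−1.11), Pecam1 (−1.17), S1pr1 (−0.61) and Acvrl1, a receptor of the BMP family in endothelium (−0.88). By edgeR none passed in Nic against Room-air, where 3 had an unadjusted p under 0.05, or in smoke against air, where 12 did. These lists hold genes of endothelium, whose markers moved in the same comparisons as given above.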

How the data were processed

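The deposited values are raw counts of reads per Ensembl gene, 1 file per library. Per the submitters' processing notes, STAR, HTSeq and the build mm10 were used, and versions, annotation and strand setting are not given in the sources used here. Each file lists 39179 genes and 5 summary lines that name no gene, which were kept out of totals and tests (reads of no feature, 28.7 to 45.2%, and ambiguous reads, at most 0.51%). Symbols were found for 37607 genes, and positions and exonic lengths are from GENCODE M21 (GRCm38). Promoter stretches are from RefSeq (GRCm38.p6).

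Differences were tested with the quasi-likelihood test of edgeR 4.0.16 (R 4.3.3). Library sizes were scaled by TMM and low genes removed by filterByExpr, dispersions came from estimateDisp, and glmQLFit was run in its robust form. P-values from glmQLFTest are two-sided and were adjusted by Benjamini and Hochberg's method across every gene tested, with 0.05 as the threshold. The 3 groups of the electronic cigarette set were fitted together, smoke and its air set by themselves, and the remaining 2 comparisons with all 19 libraries. A standard error is the log2 fold change over the square root of its F statistic. Log2 CPM for the correlations used CPM + 0.5. Alternatives were DESeq2 1.42.0, its size factors in edgeR, no filter, the replicate block, all 19 libraries in 1 fit, the other air set as control, and leaving out each library. The tests were tested on simulated data.

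All 10 members are named. Of each further signalling or pericyte list up to 4 called genes with the smallest adjusted p are named per comparison, and the 5 genes most like the members. 1 gene that this rule names is not reported here. Further genes were named after their values were seen where a count needed them. The members and lists were chosen with earlier results of these data known. Replicates differed by more than sampling noise (chi-square per gene 8.41 to 60.3), and each library was counted as 1 sample. That spread may be technical and does not show that replicates came from separate animals. Equal replicate numbers did not pair the samples, as given under the dependence on processing. 1 marker, Lhfpl3, was not matched to the counts and not used here.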

Additional observations from a re-analysis of the deposited data

Results flagged for a closer look

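In 3 of 40 sets of 4 libraries, each 1 gene in 1 group, a single library lay far from the other 3 relative to the whole range of its group. Chance places about 1 in 20 sets there. Notch3 was highest in smoke 4, at 60.0 CPM against 49.6 to 50.8 CPM in the other smoke libraries. Kcnj8 was highest in smoke 4, at 16.1 CPM against 11.5 to 12.1 CPM. Kcnj8 was highest in air 1, at 11.6 CPM against 9.63 to 9.90 CPM.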

How the results depend on the processing

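Of 840 values of single genes under alternatives, 744 kept their direction and their side of the threshold, 41 lost a call, 21 gained one and 34 changed sign, and the cause was not tested. With air as control, Nic-free gave log2 differences of 0.35 for Pdgfb, 0.63 for Notch3, 0.41 for Rgs5, 0.39 for Kcnj8, 0.42 for Abcc9, 0.30 for Cspg4, 0.36 for Higd1b, 0.71 for Anpep and 0.46 for Vtn, 0 pericyte genes called (7 at an unadjusted p under 0.05 by edgeR) and 699 genes in place of 3753. Nic then gave 10 pericyte genes and 4961 genes in place of 1 and 670. With Room-air as control, smoke gave −0.12 for Notch3, −0.41 for Rgs5, −0.59 for Kcnj8, −0.55 for Abcc9, −0.12 for Higd1b, −0.36 for Anpep and −0.21 for Vtn, with 1 pericyte gene and 1027 genes called in place of 2 and 244. DESeq2 called 1645 genes in Nic against Room-air, 924 in smoke against air and 1754 for the difference of effects (925 by edgeR), and 2 pericyte genes in place of 1 in Nic-free against Room-air. Without a filter smoke against air gave 466 genes. With all 19 libraries in the fit it gave 519, Nic against Room-air gave 348 with 0 pericyte genes, and Nic-free against Room-air gave 2 pericyte genes. With DESeq2 size factors in edgeR, Nic against Room-air gave 0 pericyte genes (2 unadjusted). Replicate numbers did not pair the samples: 9 of 36 same-numbered pairs had a correlation of deviations over 0.1 (−0.49 to 0.53), and in 14 of 72 cases a sample correlated best with its own number. With the replicate number as a block, genes called were 3274 for Nic-free and 472 for Nic against Room-air, 3418 for Nic against Nic-free, 5 for smoke against air, 3487 for air against Room-air and 777 for the difference of effects, and pericyte genes 1, 0, 3, 0, 7 and 0. Leaving out 1 library gave 2186 to 3534 genes (0 to 2 pericyte genes) in Nic-free against Room-air, 0 to 2956 (0 to 2) in Nic against Room-air, 2401 to 4679 (2 to 9) in Nic against Nic-free, 1 to 192 (0 to 2) in smoke against air, 2415 to 3496 (6 to 7) in air against Room-air and 13 to 2476 (0 to 0) for the difference of effects. The counts of 0 genes came without Room-air 2 (3581 at an unadjusted p under 0.05 by edgeR) and without Nic 1 (2424). Signs changed for Pdgfrb (−0.11 to 0.11) and Cspg4 (−0.125 to 0.055) in Nic-free against Room-air, for Cspg4 in Nic against Room-air (−0.029 to 0.278) and Nic-free (−0.006 to 0.301), and in the difference of effects for Pdgfrb (−0.13 to 0.21), Rgs5 (−0.32 to 0.035), Kcnj8 (−0.25 to 0.21), Abcc9 (−0.37 to 0.049), Higd1b (−0.15 to 0.28) and Vtn (−0.10 to 0.28). Depth limits Anpep, Kcnj8 and Higd1b most, with 64 counts at the least.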
